A study of Canis lupus familiaris with 58 samples.

Results

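The Polycomb and chromatin regulators EZH2, SUZ12, HDAC1, SMARCA4 and CBX1 were read across B-cell lymphomas of 58 pet dogs. They are 5 of the 15115 genes measured, taken as the probe sets whose only gene symbol was one of these names. The names matched 7 of 43035 probe sets. Where a symbol had more than 1, the probe set with the highest mean was used and the other served as a check, which applied to HDAC1 and SMARCA4.

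Each array held RNA of 1 dog, sampled before treatment as lymph node tissue (39 dogs) or as a needle aspirate (19 dogs). Of the lymph node cases, 32 were diffuse large B-cell lymphoma (DLBCL, made of large, fast-growing B cells) and 7 were marginal zone lymphoma (MZL, which arises from B cells at the rim of the follicle). The diagnosis was unknown for all aspirates. Mutation of the tumour's antibody heavy chain gene (IGHV) was labelled static in 26 and ongoing in 27 cases; 5 carried the label ND, which is not explained. Static and ongoing status were held by 18 and 12 dogs with lymph node DLBCL, 1 and 4 with MZL, and 7 and 11 sampled by aspirate. Breed, age and sex were not analysed here. Progression-free survival (PFS) was known for 55 dogs (47 events) and overall survival (OS) for 56 (41 events), in times whose unit the labels do not state.

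These genes act on how DNA is packed on histones. EZH2 is the methyltransferase of Polycomb repressive complex PRC2, which marks histone H3 for gene silencing, and SUZ12 is a core subunit that the enzyme needs. HDAC1 removes acetyl groups from histones in several repressor complexes, SMARCA4 (BRG1) is the ATPase of SWI/SNF complexes, which slide nucleosomes and oppose Polycomb, and CBX1 (HP1-beta) binds the methylated histone mark of heterochromatin. In human and mouse germinal centres, dividing B cells hold EZH2 at a high level, and activating EZH2 mutations are known in human DLBCL.

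All values are log2 expression values after RMA, a method that corrects background, normalizes between arrays and summarises the probes of a set. Of 10 B-cell marker genes 8 were measured, and their mean level in lymph node was 9.63 ± 0.50 (SD, n = 39), beside 9.79 ± 0.54 in the 19 aspirates. The 2 arrays that correlated least with the rest were aspirates, dog 12 (ongoing) at 0.941 and dog 42 (static) at 0.952, against a median of 0.972. In bulk tissue, fewer cells of a type and less RNA per cell cannot be told apart.

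The genes differed widely in how much they varied between dogs. SUZ12 had an SD of 1.14 over 58 arrays, higher than that of 98.9% of genes, with a lowest value of 5.43, a median of 9.39 and a highest of 11.30. That range spans 58.4-fold. EZH2 ran from 9.55 through a median of 10.47 to 11.64, with an SD of 0.43, above 80.6% of genes. CBX1 ran from 7.81 through 9.05 to 9.45 (SD 0.31, above 61.7% of genes), so its spread lay mostly below its median. HDAC1 and SMARCA4 were near the middle of all genes in spread. HDAC1 ran from 10.19 through 10.68 to 11.55 with an SD of 0.22, above 44.1% of genes. SMARCA4 ran from 10.70 through 11.62 to 12.21 with an SD of 0.26, above 52.9% of genes.

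**Figure D1:**
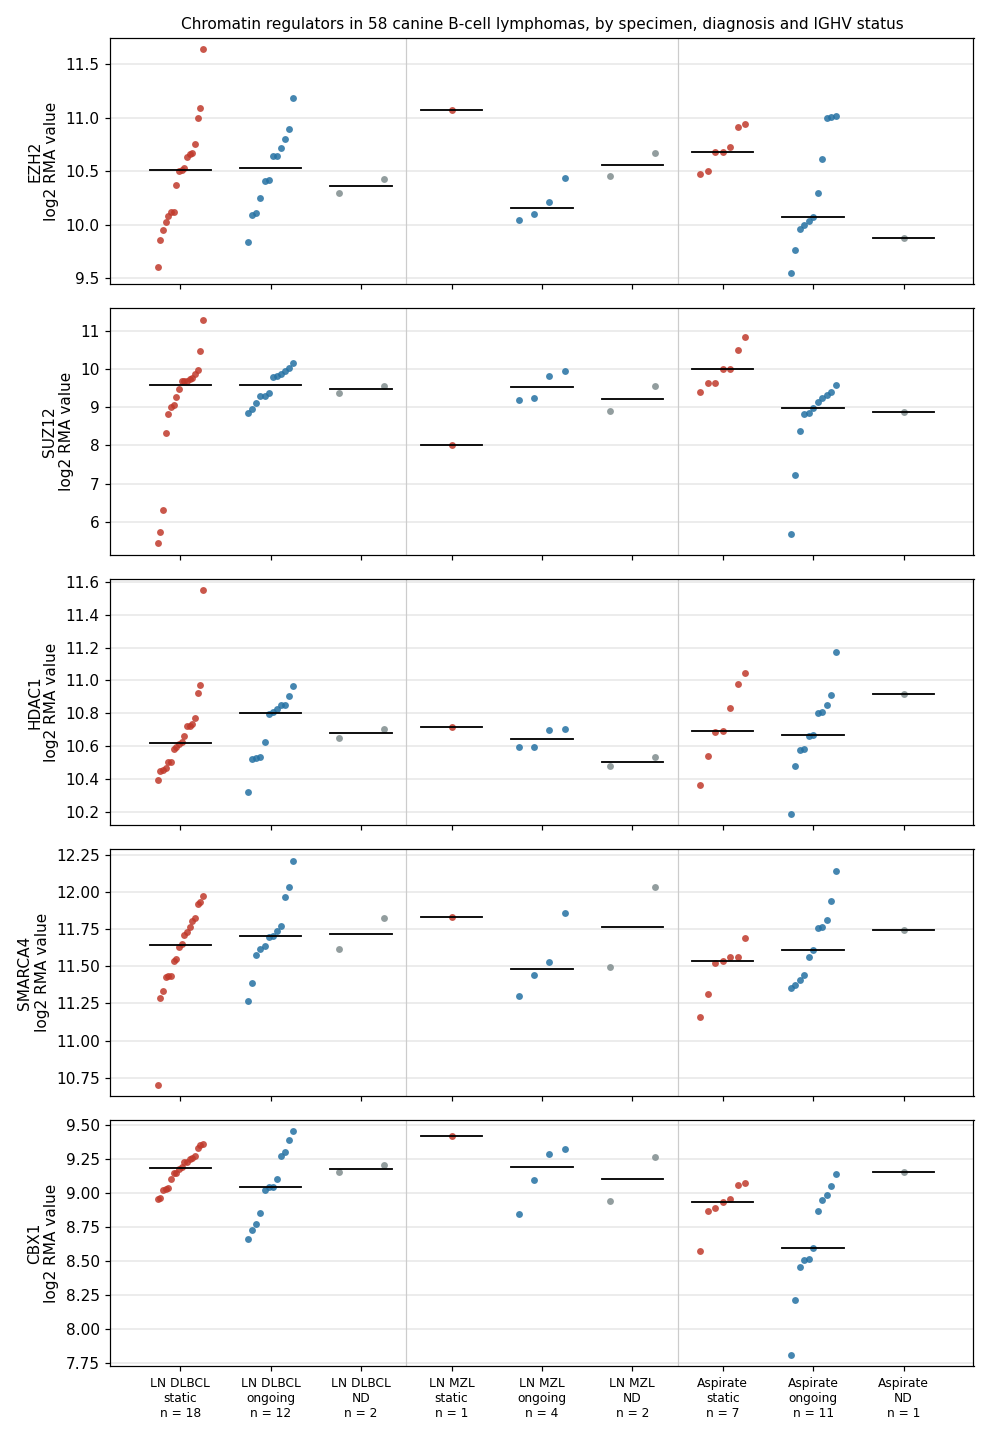
Log2 RMA values of EZH2, SUZ12, HDAC1, SMARCA4 and CBX1 (y axes, 1 panel per gene) in 58 arrays, by lymph node (LN) or aspirate, diagnosis and IGHV status (x axis). Points are dogs and bars are medians; SUZ12 has 5 arrays between 5.43 and 7.23, and 7 aspirates lie below the lowest lymph node value of CBX1.

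EZH2, the PRC2 enzyme, followed the cell cycle genes from dog to dog. Its values, after removing the mean of each stratum (lymph node DLBCL, lymph node MZL, aspirate), correlated with the mean of 36 proliferation genes at Pearson r = 0.837 (n = 58, permutation p = 1e-05, the smallest that 100000 permutations can give; 0.00055 after adjustment over 55 correlations). Spearman's rho was 0.829 (adjusted permutation p = 0.00055). The relation was alike in lymph node (r = 0.834) and in aspirates (r = 0.842), and r was 0.817 without the 2 arrays farthest from the median proliferation score. By this r EZH2 ranked 39 among 15079 genes outside the proliferation list. The score correlated with the other members at 0.262 for CBX1, 0.208 for HDAC1, 0.200 for SUZ12 and -0.110 for SMARCA4, none past the threshold of 0.05 after adjustment. For HDAC1 the tissues differed in sign, with r = 0.448 in lymph node (permutation p = 0.00456) and -0.168 in aspirates, a difference that was not tested, and r over all arrays was -0.0027 without the 2 farthest scores.

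The 5 genes most like EZH2 over 58 arrays were NCAPG (r = 0.827), a condensin subunit, AURKA (0.822), a mitotic kinase, KIF22 (0.821), a chromosome-arm kinesin, CDC20 (0.804), an activator of the anaphase-promoting complex, and POLA2 (0.801), a DNA polymerase alpha subunit. AURKA and CDC20 are in the proliferation list. Genes whose symbol starts with LOC were left out of this ranking and of those for the other members. EZH2 also correlated with the mean of 20 MYC target genes (r = 0.465, rho = 0.528, adjusted permutation p = 0.0066 and 0.0011), with r = 0.344 in lymph node and 0.654 in aspirates. Once the proliferation score was removed as well, that r was -0.23.

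**Figure D2:**
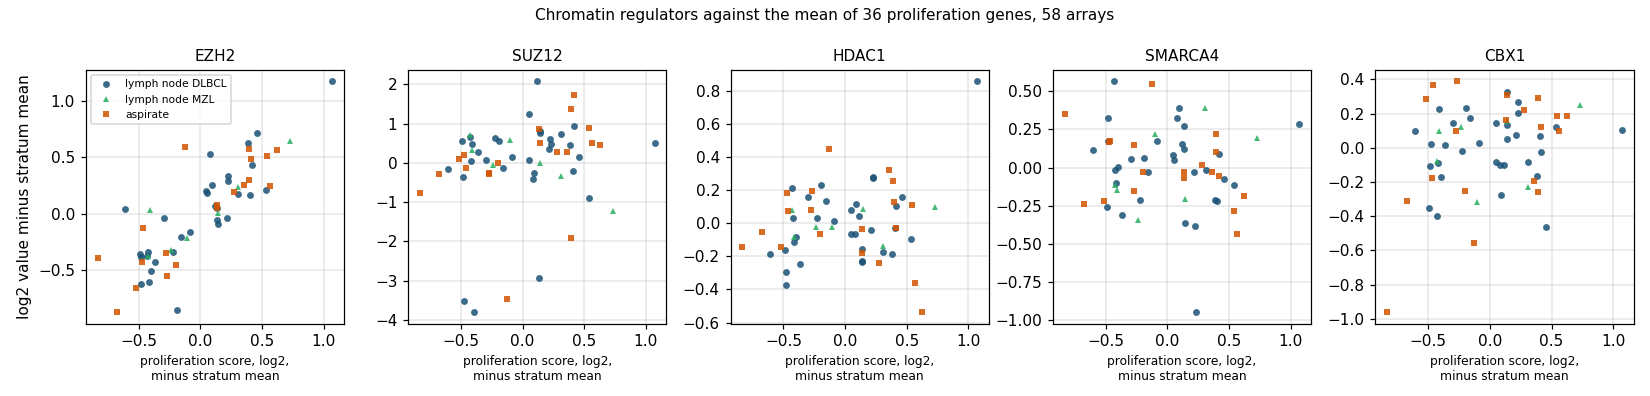
Log2 values of the 5 genes (y axes) against the mean log2 value of 36 proliferation genes (x axes), each minus its stratum mean, with 1 point per array by specimen and diagnosis. EZH2 is higher where the score is higher, with r = 0.837, while r lies between -0.110 and 0.262 for the other 4 genes.

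B cells mutate their antibody genes in the germinal centre, and IGHV status records whether that mutation went on in the tumour. None of the 5 genes passed the threshold (adjusted p under 0.05) between static and ongoing tumours, where limma called 0% of all genes and 1077 of 15115 had an unadjusted p under 0.05. EZH2 in static lymph node DLBCL had a lowest value of 9.61, a median of 10.51 and a highest of 11.64 (n = 18), against 9.84, 10.53 and 11.18 (n = 12) in ongoing cases. Static aspirates ran from 10.48 through 10.68 to 10.94 (n = 7) and ongoing aspirates from 9.55 through 10.08 to 11.02 (n = 11). The groups overlapped in both tissues, although static aspirates held none of the low values of the ongoing ones. The fitted difference was 0.17 ± 0.13 (SE, fold 1.12, limma adjusted p = 0.790). Beside it, 36 of 36 measured proliferation genes were higher in static samples, with a median difference of 0.25 and 0 past the threshold. Over all genes, 7137 of 15115 were higher in static samples, with a median of -0.0047. The mean proliferation score was 10.69 ± 0.17 in static and 10.12 ± 0.46 in ongoing aspirates (SD). The lymph node samples were closer, at 10.48 ± 0.44 and 10.37 ± 0.33. With the proliferation score as a covariate the EZH2 difference was -0.080. It was -0.049 in lymph node DLBCL alone, 0.40 in aspirates alone (adjusted p = 0.372) and 0.26 without the 5 arrays of lowest SUZ12 (adjusted p = 0.453).

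EZH2 did not pass by tissue or diagnosis. Aspirates ran from 9.55 through 10.50 to 11.02 (n = 19) and lymph node samples from 9.61 through 10.43 to 11.64 (n = 39), a difference of -0.031 ± 0.12 (95% interval -0.27 to 0.21). MZL ran from 10.05 through 10.43 to 11.08 (n = 7), within the DLBCL range, at -0.037 ± 0.17 from DLBCL (-0.39 to 0.31).

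SUZ12, the PRC2 core subunit, had a few arrays far below the rest. The 5 lowest were dog 19 (5.43), dog 18 (5.72) and dog 17 (6.30), all static lymph node DLBCL, with dog 12 (5.68) and dog 20 (7.23), both ongoing aspirates. The next array was the static MZL case at 8.00. The dogs numbered 17 to 20 are consecutive, and the labels give no batch or scan time to set this against.

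Over all arrays, SUZ12 means lay on opposite sides by IGHV status in the tissues. Static aspirates ran from 9.39 through 9.99 to 10.85 (n = 7) and ongoing aspirates from 5.68 through 8.99 to 9.57 (n = 11), so that they overlapped only between 9.39 and 9.57. Static lymph node samples ran from 5.43 through 9.49 to 11.30 (n = 19) and contained the whole range of the ongoing ones, 8.86 through 9.59 to 10.17 (n = 16). The means were 10.00 ± 0.52 and 8.60 ± 1.16 in aspirates and 8.93 ± 1.57 and 9.55 ± 0.42 in lymph node. Without the 5 lowest arrays, the lymph node means were close, at 9.51 ± 0.79 (static, n = 16) and 9.55 ± 0.42 (ongoing, n = 16). The static median, 9.69, was then above the ongoing one, 9.59. In aspirates the ongoing mean was then 9.08 ± 0.36 (n = 9), still below the static mean of 10.00.

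Over all static or ongoing arrays, the IGHV contrast in aspirates minus that in lymph node was 2.06 ± 0.66 (SE, 95% interval 0.73 to 3.39, limma p = 0.00307). It did not pass after adjustment over all genes (limma adjusted p = 0.331). No member passed in that test, which called 0.0132% of all genes (2 of 15115; 1375 had an unadjusted p under 0.05). Without the 5 lowest arrays, which were picked by their SUZ12 values, the estimate was 1.03 ± 0.35 (adjusted p = 0.755). Averaged over tissues, the static minus ongoing difference was 0.054 ± 0.34, and it was -0.14 without the 2 least correlated arrays.

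SUZ12 levels by tissue and diagnosis overlapped throughout. Aspirates ran from 5.68 through 9.32 to 10.85, lymph node DLBCL from 5.43 through 9.53 to 11.30 (n = 32), and MZL from 8.00 through 9.24 to 9.94. The difference was -0.097 ± 0.32 between aspirates and lymph node (95% interval -0.73 to 0.53) and 0.015 ± 0.47 between MZL and DLBCL (-0.94 to 0.97).

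The correlation of SUZ12 with EZH2 did not pass (r = 0.071, adjusted permutation p = 0.855). SUZ12 correlated with the mean of 20 MYC target genes (r = 0.417, rho = 0.478, adjusted permutation p = 0.0172 and 0.00422). Its r with the mean of 14 stroma and endothelium markers was -0.496 (rho -0.458, adjusted permutation p = 0.0066 and 0.00495), and with 12 macrophage markers -0.417 (adjusted p = 0.027; rho -0.280, adjusted p = 0.220). Without the 5 lowest arrays these r were 0.372, -0.375 and -0.171 and none of the 3 passed after adjustment (0.107, 0.107 and 0.597).

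An RNA measure also moved with SUZ12. The 3' minus 5' difference of the actin and GAPDH control probe sets, which grows as RNA is degraded, had r = -0.348 with SUZ12 (adjusted permutation p = 0.189; rho -0.382, adjusted p = 0.0416). In aspirates r was -0.794, and it was -0.419 in the 17 aspirates left without the 2 least correlated ones; in lymph node it was -0.149. Dog 12 had the second highest difference of all arrays, 2.28, beside 1.05, 1.02, 0.69 and 0.94 in dogs 19, 18, 17 and 20. The highest, 3.23, was that of dog 41, a static lymph node DLBCL whose SUZ12 was 9.01 and thus not among the low ones. With this measure as a covariate the interaction was 1.73 (adjusted p = 0.694), and its part in the low SUZ12 values was not tested.

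The genes most like SUZ12 were SPRYD7 (r = 0.798), UTP6 (0.747), a ribosomal RNA processing factor, OBI1 (0.746), a ubiquitin ligase of replication origins, SKAP2 (0.726), a signalling adaptor, and INTS7 (0.723), a subunit of the Integrator complex. UTP6 is also the next measured gene on one side of SUZ12 in the RefSeq order of the dog genome (assembly UU_Cfam_GSD_1.0). Without the 5 lowest arrays r was 0.730 for UTP6 and 0.572 for SPRYD7. Among 15074 pairs of adjacent measured genes, the median r was 0.111, and 83 pairs (0.551%) reached the r of SUZ12 and UTP6. UTP6 had been named for its high r, so this share is a description and not a test. On the other side lay CRLF3 (r = 0.470) and ATAD5 (0.462), a factor that unloads the replication clamp. Farther out the relation was not kept. Beyond UTP6, COPRS and RAB11FIP4 had r of -0.179 and -0.171. TEFM, beyond ATAD5, had 0.262, and 0.040 without the 5 lowest arrays. In dogs 19, 12, 18 and 17, UTP6 read 9.85, 9.35, 9.41 and 9.29, against a mean of 10.31 ± 0.43 (SD, n = 58). In dog 20, the fifth array of low SUZ12, it read 10.24, close to that mean. In the same order of dogs, CRLF3 read 12.57, 12.15, 12.08, 11.63 and 12.67, against a mean of 12.49 ± 0.27. Thus dogs 19 and 20 lay above the CRLF3 mean. ATAD5 read 7.99, 7.83, 7.40, 7.93 and 8.46, against a mean of 8.34 ± 0.50.

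**Figure D3:**
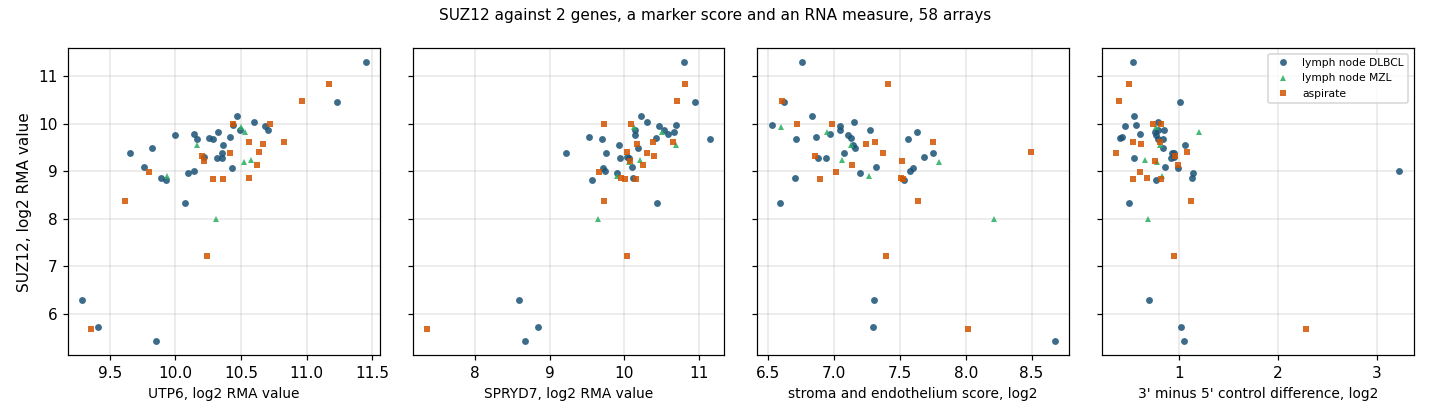
SUZ12 (y axes, log2 RMA value) against UTP6, SPRYD7, the mean log2 value of 14 stroma and endothelium markers and the 3' minus 5' difference of control probe sets (x axes), 1 point per array. The arrays with SUZ12 at 6.30 or below have the lowest SPRYD7 values and UTP6 values of 9.29 to 9.85, while dog 12 (2.28) and dog 41 (3.23, with SUZ12 at 9.01) have the highest values of the RNA measure.

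HDAC1, the deacetylase, varied little and passed no comparison. In lymph node DLBCL it ran from 10.40 through 10.62 to 11.55 (n = 18) in static and from 10.32 through 10.80 to 10.97 (n = 12) in ongoing cases. Aspirates ran from 10.37 through 10.69 to 11.05 when static and from 10.19 through 10.67 to 11.17 when ongoing. The groups overlapped over most of their ranges, and the fitted difference was -0.0013 ± 0.066 (SE, 95% interval -0.13 to 0.13, limma adjusted p = 0.998). Differences were 0.046 ± 0.062 between aspirates and lymph node and -0.075 ± 0.090 between MZL and DLBCL, neither past the threshold.

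The other HDAC1 probe set, with a mean of 10.06, followed the first with r = 0.786 in lymph node and 0.391 in aspirates. It varied more, with an SD of 0.37 against 0.22 and a range of 4.45-fold against 2.57-fold. Dog 12, the array least correlated with the rest, had the highest aspirate value on the first probe set (11.17). On the other it had the lowest value of all arrays (9.05), and its part in the lower r was not tested. The other probe set gave an IGHV difference of 0.15 ± 0.11 (adjusted p = 0.774). Its IGHV by specimen interaction was 0.51 ± 0.21 (p = 0.0188, limma adjusted p = 0.468), against 0.056 ± 0.14 for the first, and neither passed. It correlated with the proliferation score at 0.417, against 0.208 for the first. The genes most like HDAC1 were CTCF (r = 0.580), the insulator-binding protein, AP3D1 (0.556), a vesicle coat subunit, CENPO (0.543), a centromere protein, PPP1R8 (0.530), a regulator of protein phosphatase 1, and ZBTB41 (0.530), a zinc finger gene.

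SMARCA4, the SWI/SNF ATPase, likewise passed no comparison. In lymph node DLBCL it ran from 10.70 through 11.64 to 11.97 in static and from 11.27 through 11.70 to 12.21 in ongoing cases. In aspirates it ran from 11.16 through 11.54 to 11.70 when static and from 11.35 through 11.61 to 12.14 when ongoing. The static groups reached less high, with a fitted difference of -0.11 ± 0.076 (SE, fold 0.924, limma adjusted p = 0.758). Its differences were -0.053 ± 0.073 between aspirates and lymph node and -0.0048 ± 0.12 between MZL and DLBCL.

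The other SMARCA4 probe set correlated with the first at 0.823 and gave -0.048 ± 0.091 for IGHV status and -0.19 ± 0.087 for specimen (p = 0.0331, adjusted p = 0.372). Within aspirates, SMARCA4 and SUZ12 had r = -0.634 (permutation p = 0.00416), against -0.190 in lymph node. Without the 2 least correlated aspirates r was -0.433, and the r of SMARCA4 with the RNA 3' minus 5' difference was 0.651 in all aspirates and 0.403 without those arrays. The genes most like SMARCA4 were VPS8 (r = 0.613) and OSBPL6 (0.600), which act in membrane and lipid transport, EXOSC10 (0.590), an exosome ribonuclease, RIPK2 (0.564), a kinase of innate immune signalling, and EIF2D (0.563), a translation initiation factor.

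CBX1, the heterochromatin reader, was lower in aspirates than in lymph node, the single call among the 5 genes in any comparison. Lymph node values ran from 8.66 through 9.15 to 9.45, with a mean of 9.13 ± 0.19 (SD, n = 39), and aspirates from 7.81 through 8.89 to 9.16, with a mean of 8.77 ± 0.35 (n = 19). The ranges overlapped, but 7 aspirates lay below every lymph node sample, 19 lymph node samples lay above every aspirate, and 18 of 19 aspirates lay below the lymph node median. The difference was -0.37 ± 0.071 (SE, 95% interval -0.51 to -0.22, fold 0.776, limma adjusted p = 0.0132). CBX1 ranked 4 by p in a comparison that called 0.119% of all genes (18 of 15115, of which 14 were higher and 4 lower in aspirates). The other 4 members did not pass, with estimates between -0.097 and 0.046.

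The call held when each of the 58 arrays was left out in turn, with adjusted p between 0.00412 and 0.0429 and differences between -0.39 and -0.31. It held without the 2 least correlated arrays (-0.34, adjusted p = 0.0430) and did not without the 5 arrays of lowest SUZ12 (-0.32, adjusted p = 0.108). Diagnosis was unknown in all aspirates, so specimen type and any difference in diagnosis cannot be told apart. Against lymph node DLBCL alone the difference was -0.36 (adjusted p = 0.0454).

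Markers of other cell types were also compared between specimens. All 12 measured T-cell markers had higher means in aspirates, 8 of them at an unadjusted p under 0.05 and 0 after adjustment. Over all 15115 genes, 7085 were higher in aspirates, 985 of them at an unadjusted p under 0.05. The mean T-cell marker level ran from 7.69 to 9.53 in aspirates and from 7.49 to 9.23 in lymph node. With that level as a covariate the CBX1 difference was -0.32 (adjusted p = 0.0966). Of 14 stroma and endothelium markers, 12 were higher in aspirates, 5 at an unadjusted p under 0.05 and 0 after adjustment, and their mean level ran from 6.61 to 8.50 in aspirates and from 6.52 to 8.68 in lymph node. Of 7 measured granulocyte markers, 5 were higher, 2 at an unadjusted p under 0.05 and 0 after adjustment, with mean levels from 6.38 to 9.19 and from 6.38 to 8.40. Macrophage markers were lower in 8 of 12, with 0 at an unadjusted p under 0.05 by limma. Of 5 measured red cell markers, 3 were higher in aspirates and 1 passed, ALAS2, the first enzyme of haem synthesis in red cell precursors (0.61 ± 0.12, adjusted p = 0.0133; named after its value was seen). The red cell mean ran from 6.86 to 7.63 in aspirates and from 6.81 to 7.28 in lymph node, and with it as a covariate the CBX1 difference was -0.29 (adjusted p = 0.0309). With the RNA 3' minus 5' difference as a covariate it was -0.37 (adjusted p = 0.00435). The part of stroma, endothelium, granulocytes and macrophages in the CBX1 difference was not tested.

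CBX1 also had the smallest p of the members for IGHV status, again without passing. Static lymph node DLBCL ran from 8.96 through 9.18 to 9.36 (n = 18) and ongoing cases from 8.66 through 9.04 to 9.45 (n = 12). Static aspirates ran from 8.57 through 8.93 to 9.07 and ongoing aspirates from 7.81 through 8.59 to 9.14. In both tissues the lowest values were ongoing cases, while the upper ends overlapped. The fitted difference was 0.18 ± 0.071 (SE, 95% interval 0.036 to 0.32, fold 1.13, p = 0.0152, limma adjusted p = 0.670). MZL ran from 8.85 through 9.26 to 9.42, at 0.041 ± 0.082 from DLBCL. No member passed between MZL and DLBCL, where limma called 0% of all genes and 176 had an unadjusted p under 0.05.

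Between members, 1 of 10 pairs passed, CBX1 with SMARCA4 (r = -0.366, adjusted permutation p = 0.0313), where rho was -0.265 (adjusted p = 0.244) and r was -0.236 without the 2 arrays farthest from the median of CBX1. The genes most like CBX1 were RAD23B (r = 0.639), a DNA damage recognition factor, ARPP19 (0.616), a mitotic phosphatase inhibitor, PEX13 (0.608), a peroxisome import protein, SDHD (0.595), a subunit of succinate dehydrogenase, and SLC35A5 (0.585), a nucleotide sugar transporter gene. Their r with CBX1 was between 0.779 and 0.896 in aspirates and between 0.202 and 0.347 in lymph node.

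**Figure D4:**
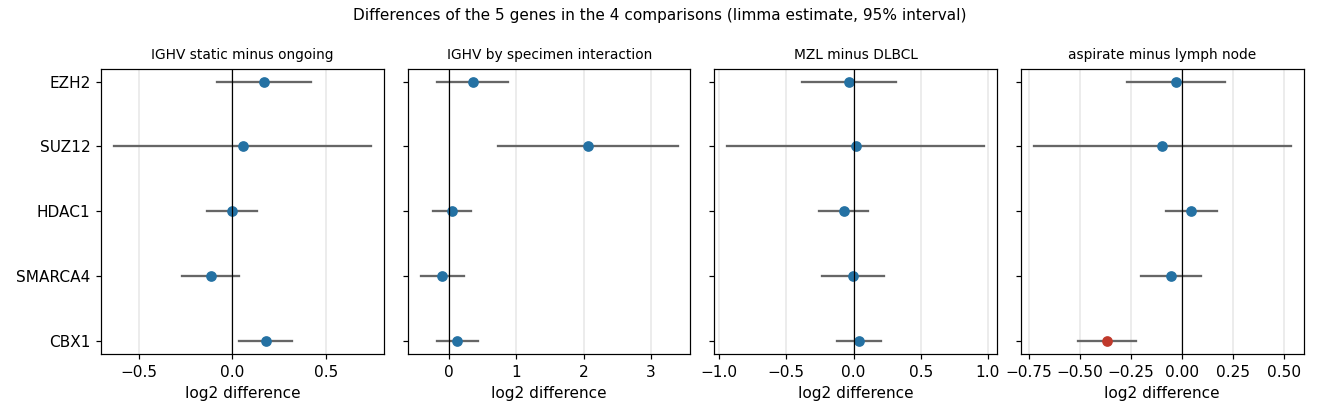
Log2 differences of the 5 genes in 4 comparisons (x axes, limma estimates with 95% intervals; the second panel is the aspirate minus lymph node difference of the IGHV contrast). CBX1 between aspirates and lymph node, in red, is the value past the adjusted threshold, at -0.37; the SUZ12 interaction of 2.06 is not.

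Of 89 other measured genes of these complexes, 0 passed the threshold in any comparison, by limma or the score test. These are further PRC2 and PRC1 genes, deacetylase complex, SWI/SNF and heterochromatin genes, and chromatin enzymes that oppose Polycomb or are mutated in human lymphoma. For IGHV status their median difference was 0.0085, against -0.0047 over all genes, and 9 of 89 (10.1%) had an unadjusted p under 0.05, against 7.13% of all genes. In the test of whether the IGHV difference differed by specimen, 19 (21.3%) had an unadjusted limma p under 0.05, against 9.10% of all genes. The median was 0.084, against -0.0062 over all genes, with 56 estimates positive and 33 negative. Over all genes, 7311 of 15115 were positive. Those under 0.05 went both ways, with 3 positive and 0 negative in SWI/SNF and 1 and 3 in PRC1. For specimen the median was -0.059, against -0.0063 over all genes, with 61 of 89 lower in aspirates. Over all genes, 8030 of 15115 were lower in aspirates. At an unadjusted p under 0.05 by limma were 11 of the 89 (12.4%), against 11.8% of all genes. Of the 12 heterochromatin genes, 9 were lower in aspirates beside CBX1, with a median of -0.060 and 1 in each direction at an unadjusted p under 0.05. Of 17 PRC1 genes, 14 were lower in aspirates (median -0.12).

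Within PRC2 the genes with the smallest p for IGHV status were JARID2, a cofactor that helps target the complex (-0.16 ± 0.096), and EED, the subunit that reads its methyl mark (0.12 ± 0.072). In PRC1, the complex that ubiquitinates histone H2A, they were PCGF1 (-0.31 ± 0.13) and the ubiquitin ligase RING1 (-0.17 ± 0.089). Among deacetylase genes they were HDAC8 (0.24 ± 0.094) and the scaffold SIN3A (0.19 ± 0.079), and among SWI/SNF genes the subunits SS18 (0.34 ± 0.14) and SMARCD3 (-0.11 ± 0.055). Among heterochromatin genes they were CBX5, the paralog HP1-alpha (0.19 ± 0.097), and the lamin B receptor LBR (0.24 ± 0.13). UHRF1, which recruits the maintenance DNA methyltransferase (0.43 ± 0.16), and the H3K36 methyltransferase NSD2 (0.17 ± 0.073) led the opposing and lymphoma-linked group. All their limma adjusted p lay between 0.670 and 0.732.

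Of 12 genes that EZH2 is known to silence in germinal centre B cells, 8 were measured. Their median r with EZH2 was 0.0077, against 0.0065 over all genes, with 5 positive and 3 negative; the lowest was TNFRSF14 (-0.239), a receptor often lost in human follicular lymphoma, and the highest the cell cycle inhibitor CDKN1A (0.103). With SUZ12 the median was -0.170 against -0.097 over all genes, from the transcription factor KLF6 (-0.493) to the egress receptor S1PR1 (0.358). TNFRSF14 and S1PR1 had the smallest p of these genes for IGHV status, at -0.21 ± 0.084 and -0.41 ± 0.34, with limma adjusted p of 0.670 and 0.820.

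The members were also set against their own complexes. Among 7 other PRC2 genes, EED was the one most like both EZH2 (r = 0.271) and SUZ12 (0.416), and JARID2 the least like both (-0.390 and -0.449). The median r was 0.109 for EZH2 and 0.122 for SUZ12, against 0.0065 and -0.097 over all genes. SUZ12 had r = 0.414 with the histone chaperone RBBP4, above that with 93.2% of all genes. HDAC1 correlated best with the methyl-CpG binding gene MBD2 (0.416) of 20 deacetylase complex genes. The median there was -0.031, against 0.00098 over all genes. SMARCA4 correlated best with ARID1B (0.477), a SWI/SNF subunit, and least with DPF2 (-0.378). Its median was 0.068 over 20 SWI/SNF genes, against 0.019 over all genes. CBX1 correlated best with its paralog CBX3 (0.424), with a median of 0.058 over 12 heterochromatin genes, against -0.027 over all genes. Positive r were found for 55.0% of the listed genes with SMARCA4 (54.9% of all genes) and 45.0% with HDAC1 (50.2%). They were found for 66.7% with CBX1 (44.6%), 57.1% with EZH2 (51.4%) and 57.1% with SUZ12 (36.4%). These correlations are descriptions over the same 58 arrays.

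Survival was tested gene by gene within specimen strata. No member passed the score test for PFS, which called 0% of all genes (428 at an unadjusted p under 0.05), or for OS, which called 0.00662% (1 of 15115; 603 at an unadjusted p under 0.05). EZH2 had a hazard ratio of 1.28 per log2 unit for PFS (95% interval 0.61 to 2.69) and 1.19 for OS (0.53 to 2.69). SUZ12 had 0.947 (0.73 to 1.23) and 0.974 (0.75 to 1.26). SMARCA4 had 0.879 (0.30 to 2.62) and 0.485 (0.15 to 1.59), and CBX1 1.37 (0.43 to 4.36) and 1.77 (0.48 to 6.48). All intervals held 1, and the narrow spread of SMARCA4 and CBX1 made theirs wide per log2 unit.

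HDAC1 had the smallest p for both outcomes, with a hazard ratio of 0.257 per log2 unit for PFS (0.043 to 1.53, p = 0.136) and 0.177 for OS (0.028 to 1.12, p = 0.0657, adjusted p = 1.00 by the score test). In aspirates the OS hazard ratio was 0.338 per SD of 0.24 (0.15 to 0.74, score test p = 0.00481, adjusted p = 0.999, 19 dogs, 13 events), against 0.959 per SD in lymph node (0.59 to 1.56, 37 dogs, 28 events). The PFS values were 0.483 (0.24 to 0.98) and 0.941 (0.57 to 1.55). Without the 2 least correlated aspirates the OS value was 0.386 per SD.

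The other HDAC1 probe set gave values near 1. In aspirates its OS hazard ratio was 0.909 per SD (0.54 to 1.52, score test p = 0.716). Dog 12 had the highest aspirate value on the first probe set and the lowest on the other. The hazard ratio of the other probe set was not computed without that dog. The test of the difference between tissues for the first probe set gave p = 0.0282 for OS, which did not pass over all genes (likelihood ratio test, adjusted p = 1.00). No member passed that test for OS or PFS, and 0% of all genes did (610 for OS and 738 for PFS had an unadjusted p under 0.05).

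EZH2 was on opposite sides of 1 in the tissues for OS, with 1.49 per SD in lymph node (0.93 to 2.41) and 0.757 in aspirates (0.44 to 1.29), and the difference was not past the threshold (p = 0.0610, adjusted p = 1.00). SUZ12 for PFS was at 0.726 per SD in lymph node (0.50 to 1.05) and 1.36 in aspirates (0.80 to 2.30; difference p = 0.0519, adjusted p = 0.917).

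**Figure D5:**
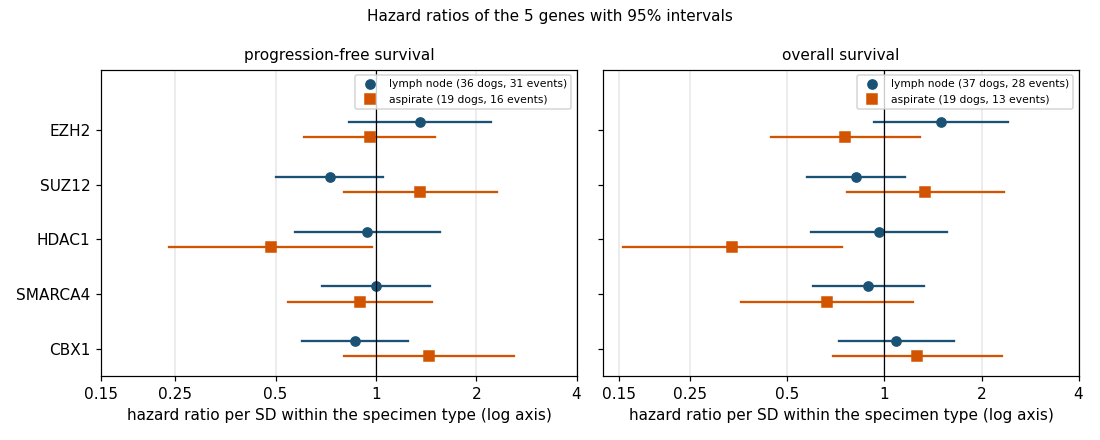
Hazard ratios of the 5 genes per SD within lymph node (circles) or aspirates (squares), with 95% intervals on a log axis, for progression-free survival (left) and overall survival (right). HDAC1 in aspirates, at 0.483 and 0.338, is the gene whose intervals leave out 1, before adjustment.

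Among the other chromatin genes none passed for OS either, and 3 of 89 (3.37%) had an unadjusted p under 0.05, against 3.99% of all genes. Those were KDM1A, a histone demethylase of deacetylase complexes (hazard ratio 0.331 per log2 unit, p = 0.0223), UHRF1 (2.08, p = 0.0183) and the bromodomain gene BRD9 (0.224, p = 0.0495). The smallest p in PRC2 were those of AEBP2 (0.318) and MTF2 (0.604), in PRC1 of PCGF2 (2.86) and PHC3 (0.562), and among heterochromatin genes of ATRX (0.583) and CBX3 (3.14). NCOR1 (0.463), BRD7 (0.281) and DNMT3A (0.535) came next in the deacetylase, SWI/SNF and lymphoma-linked groups. Among the listed genes that EZH2 is known to silence in germinal centre B cells, CDKN1B had a hazard ratio of 3.41 (p = 0.0157). S1PR1 had one of 0.763 (p = 0.0352). Silencing of these genes in these tumours was not tested. All adjusted p were 1.00 by the score test.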

How the data were processed

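Total RNA was biotin-labelled and hybridised to Affymetrix canine arrays, as the labels describe. The log2 values were made by the authors with Affymetrix Expression Console and RMA, per the submitters' processing notes; versions, scan dates and the array's genome build are not given in the sources used here. They were used as deposited, with no filter on low values. By GEO's platform annotation 29254 of 43035 probe sets had a single symbol, 439 had more than that, 13231 were unnamed and 111 were controls. Each of 15115 genes was read from its probe set of highest mean (8254 had a choice).

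Groups were compared with limma 3.58.1 (R 4.3.3; lmFit, eBayes, two-sided, Benjamini-Hochberg over all genes, threshold 0.05). IGHV status was tested over the 53 static or ongoing arrays with stratum as a covariate, and its product with specimen gave the interaction. Diagnosis was tested over 39 lymph node arrays and specimen over 58. Survival used a two-sided Cox score test per gene, stratified by specimen, with intervals from survival 3.8.3. Events were taken as indicator 1, since PFS and OS times were equal in the 8 dogs at 0 for PFS. Correlations used values centred on stratum means, with two-sided p from 100000 permutations within stratum, adjusted over 55 correlations. The limma and rank-sum tests of IGHV status, specimen and diagnosis and the Cox tests were run on simulated data with independent normal values. The interaction, the likelihood ratio test between tissues and the permutation correlations were not checked in this way. Each array is another dog, and the number of arrays limits the precision.

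The members and gene lists were chosen with earlier results of these data known. Genes named beside the members were the 5 with the highest r to each, with symbols starting with LOC left out. In each chromatin list they were those past the threshold or else the 2 with the smallest p for IGHV status and for OS. Neighbours, single complex partners and ALAS2 were named after their values were seen. The germinal centre, granulocyte, B-cell and MYC target lists had 0 genes past the threshold in any comparison. Alternatives were the mean of all probe sets, another quantile normalization, leaving out the lowest 25% of genes or single arrays, rank-sum tests, single tissues and covariates.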

Additional observations from a re-analysis of the deposited data

Results flagged for a closer look

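CBX1 had 1 low value among the 7 static aspirates. That array read 8.57 on the log2 scale, while the other 6 lay between 8.87 and 9.07, so its gap to the next was 0.590 of the group's range. Dixon's test at the 95% level was applied to 15 such groups (each of the 5 genes in MZL, static aspirates and ongoing MZL), of which chance would mark about 1 in 20. Leaving that dog, number 40, out moved the CBX1 difference between aspirates and lymph node to -0.35 (limma adjusted p = 0.0199).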

How the results depend on the processing

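Of 282 alternative values of the 5 genes' differences and hazard ratios, 240 kept their direction and side of the threshold. Another 2 lost the CBX1 call and 40 changed sign, all of the latter for values that had not passed. Some of the 240 could not change direction. Leaving out the genes of lowest level could move p-values but not the estimates of the 5 genes. The mean of probe sets left EZH2, SUZ12 and CBX1 unchanged, since each had a single probe set. The count of 240 therefore overstates how far direction was tested. Of 47 alternative values for correlations, 27 kept theirs, 19 no longer passed and 1 changed sign. For IGHV status, HDAC1 was 0.076 with the mean of probe sets, 0.15 with its other probe set, 0.014 without the 2 least correlated arrays, 0.035 in aspirates and 0.045 without the 5 arrays of lowest SUZ12; SUZ12 was -0.14 without the 2 arrays, -0.57 in lymph node DLBCL, -0.12 with the proliferation score and -0.022 with RNA quality as covariate; EZH2 was -0.049 in lymph node DLBCL and -0.080 with the proliferation score. For the interaction, the proliferation score gave EZH2 -0.085 and HDAC1 -0.0092, and SMARCA4 was 0.016 without the 5 arrays and 0.081 with its other probe set. Between MZL and DLBCL, SMARCA4 was 0.0087 with the mean of probe sets and 0.022 with the other one, SUZ12 had a rank-sum z of -0.62 and was -0.23 with IGHV status as covariate, and EZH2 was 0.054 with the proliferation score. Between aspirates and lymph node, HDAC1 was -0.024 with the mean of probe sets, -0.093 with the other one and -0.0037 without the 5 arrays; SUZ12 was 0.0051 without the 2 arrays and 0.21 with the erythroid score; EZH2 was 0.027 with IGHV status, 0.065 with the proliferation score and 0.026 with the T-cell score.

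Hazard ratios crossed 1 for PFS for SMARCA4 with the mean of probe sets (1.01), its other probe set (1.13) and IGHV strata (1.45), for CBX1 in lymph node (0.489) and with IGHV strata (0.869), for EZH2 in aspirates (0.910) and with the proliferation score (0.502), and for SUZ12 in aspirates (1.31). For OS they crossed it for EZH2 in aspirates (0.553) and with the proliferation score (0.317), and for SUZ12 in aspirates (1.29) and with IGHV strata (1.05). The r of EZH2 with MYC targets was -0.23 with proliferation removed.

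Counts over all genes moved more. IGHV status called 6 genes in aspirates alone. The interaction called 1 with quantile normalization, without the 2 arrays, with the proliferation score and with RNA quality. Specimen called 58 with the mean of probe sets, 37 with quantile normalization, 10 without the 2 arrays, 6 against DLBCL only, 5 with IGHV status, 5 without the 5 arrays, 44 with RNA quality, 393 with the erythroid and 7 with the T-cell score. PFS called 1 with the mean of probe sets and 1 in lymph node. OS called 2 with the mean of probe sets and 2 with quantile normalization, 3 in lymph node, and 0 without the lowest 25% of genes, in aspirates, with IGHV strata and with the proliferation score. The single member pair that passed became 0 with the mean of probe sets, without the 2 arrays, in lymph node, by Spearman's rho, with proliferation removed and without the 5 arrays; in aspirates that pair, CBX1 with SMARCA4, did not pass either (adjusted p = 0.242), and the 1 pair that did was SMARCA4 with SUZ12. Correlations with list scores that passed were 3 in lymph node, 2 in aspirates and 2 without the 5 arrays. Leaving out the 5 arrays and the RNA quality, erythroid and T-cell covariates were chosen after seeing the data. The cause of these shifts was not tested. No paired analysis was possible because each dog number occurs once.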
